A study of Mus musculus with 4 samples.

Results

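Genes of cilium, axoneme and sperm families were followed in 46C mouse embryonic stem cells that had received CID755673, a protein kinase D inhibitor, on top of the MEK inhibitor PD0325901. The members were the genes of the deposited table whose symbols begin with 1 of 20 stems, such as Cfap, Dnah, Dnal, Ccdc, Ttc, Tex, Spata, Lrrc, Kif and Catsper. This gave 42 of the 1593 listed genes, among them Dnal1, Cfap99, Ccdc150 and Tex101. The PC group (46C cells, 1 µM PD0325901 in serum plus CID755673, 24 h) and the PD group (the same line, medium and inhibitor for 24 h without CID755673) had 2 libraries each. The labels and design text give no dose of CID755673. All cells were thus under MEK inhibition, and 46C is 1 reporter line with a green fluorescent protein gene at the Sox1 locus. The comparison asked which genes CID755673 regulates in these cells.

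Motile cilia and sperm flagella share a core, the axoneme, built of microtubule doublets that slide against each other when axonemal dyneins pull. Dynein arms are assembled in the cytoplasm, docked on the doublets and regulated by radial spokes and by a central pair of microtubules. Many of these genes are best known from multiciliated epithelia and from the testis. Embryonic stem cells can carry a single non-motile primary cilium, which has no need of dynein arms.

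Values are normalized reads, that is, read counts divided by the authors' size factor of the library. A log2 fold change is the PC mean less the PD mean of log2(normalized reads + 1), and it understates changes at low read numbers. The word called is used for an adjusted p under 0.05 in limma, a linear model fitted over the whole table. The authors had chosen the table on these same libraries: log2 fold changes between -1 and 1 do not occur in it, and the largest p-value is 0.0498. A call is therefore no independent evidence of a change. Genes that the table leaves out are not analysed here. Reads on the listed genes came to 601713 and 433684 in PC replicates 1 and 2, and 632042 and 683777 in PD replicates 1 and 2, while the full depth is unknown. The groups did not overlap in any of the 42 members, as in 99.7% of all listed genes, which the selection nearly fixes. Whether the 2 libraries of a group represent separate cultures is not stated in the labels, and the spread behind each p-value may be technical. In bulk RNA, fewer cells of a type and less RNA per cell cannot be told apart.

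With CID755673, 10 members rose and 3 fell, and 29 were not called. Those that rose included the axonemal dynein light chain gene Dnal1, Cfap99, Ccdc150, Tex26, Ttc12, Ttc25, Cfap45, Catsperz and Lrrc8b. Those that fell were Tex19.1, Spata31d1b and Ccdc187. The 13 calls are 31.0% of the members, against 31.1% of all listed genes, so the share called was that of the table. Split by direction, of the members 23.8% were called higher in PC, against 11.2% of all listed genes, while 7.14% were called lower, against 19.8%. By value alone 21 members were higher and 21 lower in PC, while 38.5% of all listed genes were higher. The members' median log2 fold change was 0.02, against -1.17 over all listed genes. No member has a value near that median, since the table holds none between its limits. These shares describe the members and were not tested. When reads were instead scaled to equal totals over the listed genes, limma called 26.2% of the members higher in PC, against 15.4% of all listed genes. By the authors' deposited table, a false discovery rate under 0.05 was reached by 31 members, 16 of them higher and 15 lower in PC, against 70.2% of all listed genes, and the 13 limma calls were all among them.

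**Figure D1:**
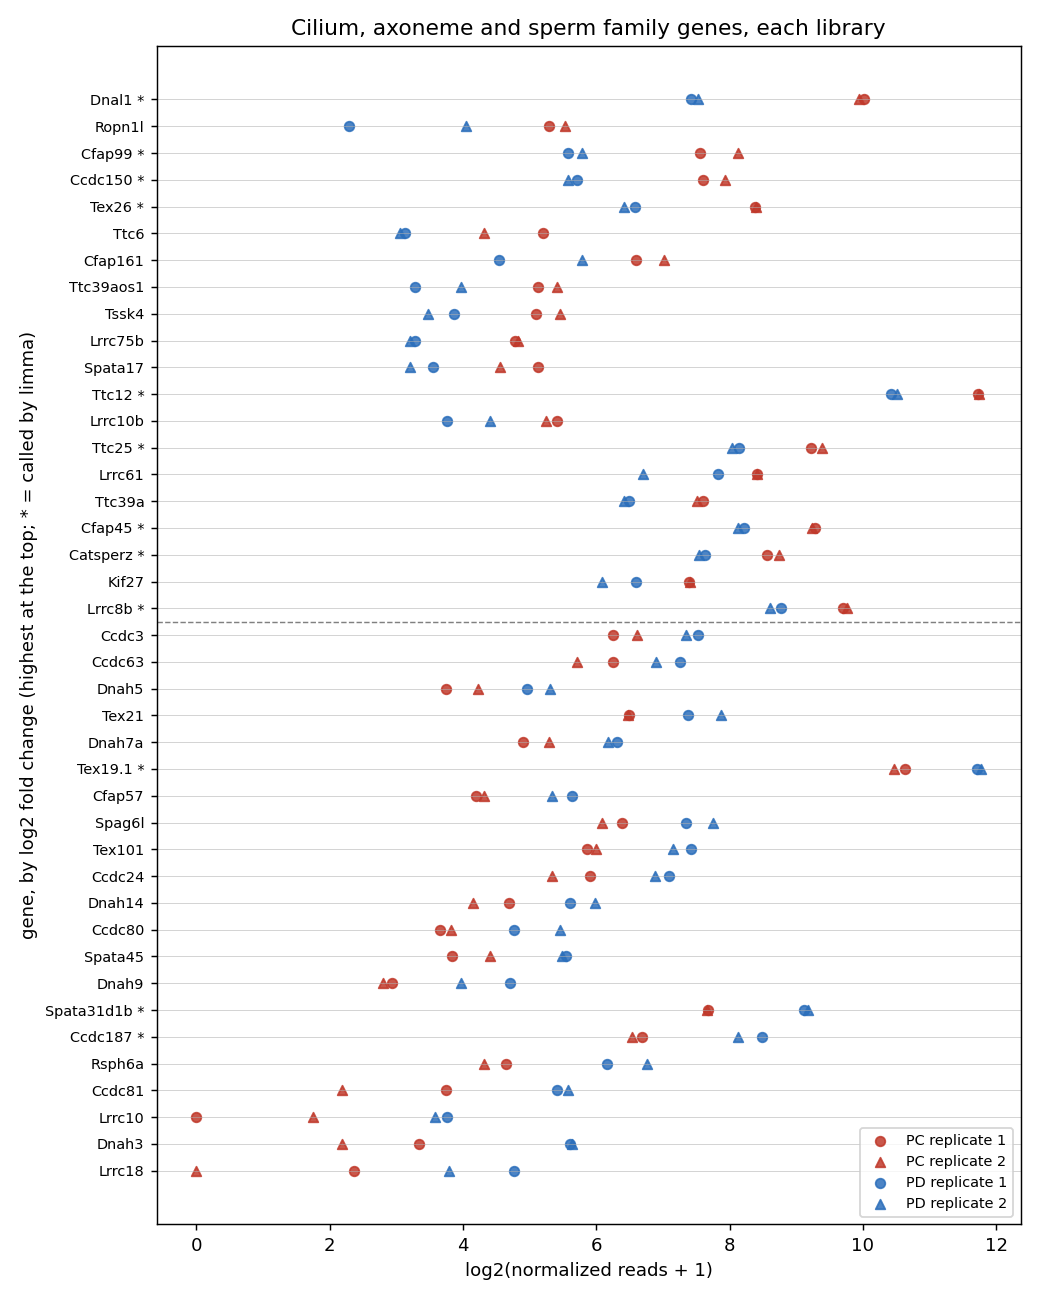
Normalized reads of 41 members on the log2(normalized reads + 1) scale in each library, PC in red and PD in blue, with circles for replicate 1 and triangles for replicate 2. Genes run from the largest log2 fold change at the top (Dnal1, 2.51) to the smallest at the bottom (Lrrc18, -3.10), stars mark limma calls, and the 20 genes above the dashed line are higher in PC.

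At an unadjusted p under 0.05, limma passed all 42 members and 1541 of the 1593 listed genes. With 1 library left out, 1 residual degree of freedom remains. limma then called 0 of the 42 members, against 2.07% of all listed genes without either PC library and 3.83% without either PD library. The members' loss of calls was thus that of the whole table. Between 24 and 32 members kept an unadjusted p under 0.05. The sizes of the changes moved little: the log2 fold change ran from 2.45 to 2.56 for Dnal1, from 1.22 to 1.31 for Ttc12 and from -1.51 to -1.45 for Spata31d1b, and no called member moved by more than 0.28. The calls also followed the number of reads. Of the 12 members with a mean of at least 200 normalized reads 11 were called, 91.7% against 80.2% of all listed genes at that level. Of the 17 members under 50 normalized reads 0 were called, against 12.7% of listed genes at that level.

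**Figure D2:**
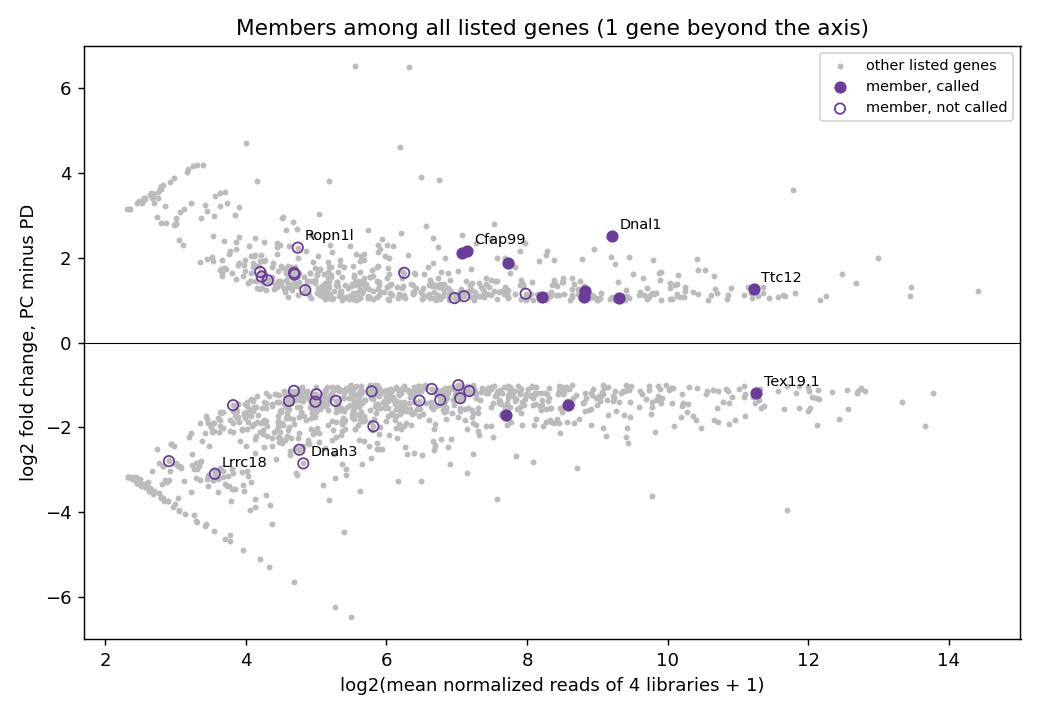
Log2 fold change (PC minus PD) against the log2 of the mean normalized reads over 4 libraries plus 1, for other listed genes in grey and 41 members in purple, filled where limma called them. The called members shown lie at a mean of at least 133.3 normalized reads, and the band around 0 is empty because the authors listed no gene there. Of all listed genes, 1 lies beyond the vertical axis.

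The largest change of a called member was in Dnal1 (ENSMUSG00000042523), which encodes a light chain that binds the motor domain of an outer arm dynein heavy chain. Dnal1 stood at 1029.8 and 985.0 normalized reads in PC replicates 1 and 2, against 169.7 and 183.3 in PD replicates 1 and 2. Both PC libraries lay far above both PD libraries, and replicates differed little. The mean was 1007.4 ± 31.7 in PC and 176.5 ± 9.62 in PD (SD, n = 2 each), a 5.71-fold ratio. The log2 fold change was 2.51 (SE 0.11; limma, Benjamini-Hochberg adjusted p = 0.011). In GENCODE M21, 5.53% of its exon bases are shared with Pnma1 on the other strand. The strand setting of the counting is not stated.

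The promoter of Dnal1 is shown because Dnal1 changed most among the called members. It is the RefSeq window from 250 bases before to 50 bases after the start, chr12:84114078-84114377 on the plus strand of GRCm38.p6. It has a GC content of 61.0% and 14 CpG sites. The sequence holds no exact match to either motif described below, and all of it is in lower case.
Dnal1: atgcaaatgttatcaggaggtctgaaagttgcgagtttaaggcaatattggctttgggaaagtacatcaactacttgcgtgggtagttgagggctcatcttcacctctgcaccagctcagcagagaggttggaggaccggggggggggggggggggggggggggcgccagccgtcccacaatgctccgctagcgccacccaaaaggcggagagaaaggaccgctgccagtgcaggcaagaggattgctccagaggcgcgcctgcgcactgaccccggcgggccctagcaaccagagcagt

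The 5 dynein heavy chain genes of the table, which encode the motors themselves, had lower values in PC, and 0 of the 5 were called. Over all listed genes 38.5% were higher in PC. Of listed genes under 50 normalized reads 12.7% were called, and of those from 50 to 200, where Dnah7a lies, 18.8%. Dnah3, of the inner arms, stood at 9.11 and 3.57 normalized reads in the PC libraries against 47.5 and 48.6 in the PD libraries. This was a log2 fold change of -2.85 (SE 0.51; limma, Benjamini-Hochberg adjusted p = 0.10), and PC replicate 2 held 3 reads. With a pseudocount of 5, with a filter at a mean of 20 normalized reads, and in voom on the reads, Dnah3 was called. Dnah7a, also of the inner arms and with near-identical copies in the mouse, had 29.0 and 38.1 in PC against 78.5 and 71.5 in PD. The outer arm gene Dnah5 had 12.4 and 17.8 in PC against 30.1 and 38.5 in PD, and Dnah9, of the outer arms too, 6.63 and 5.95 in PC against 25.2 and 14.7 in PD. Dnah14 had 24.9 and 16.7 in PC against 47.5 and 62.3 in PD. For Dnah5, Dnah7a, Dnah9 and Dnah14 the log2 fold changes lay between -1.48 and -1.14, with adjusted p (limma, Benjamini-Hochberg) from 0.28 to 0.69. The authors' deposited table gave a false discovery rate under 0.05 for Dnah3, Dnah7a and Dnah14, and 0.152 and 0.187 for Dnah5 and Dnah9. Of the exon bases of Dnah3, 10.5% are shared with Lyrm1 on the other strand.

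Levels can be set side by side only per length. Per kilobase of exon in GENCODE M21, Dnal1 had 145.2 normalized reads in PC and 25.4 in PD. The heavy chains ranged from 0.394 (Dnah9) to 2.63 (Dnah7a) normalized reads per kilobase in PC, and from 1.25 (Dnah9) to 5.88 (Dnah7a) in PD. In both groups the light chain was thus far above each listed heavy chain. Other heavy, intermediate and light chain genes are not analysed here.

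**Figure D3:**
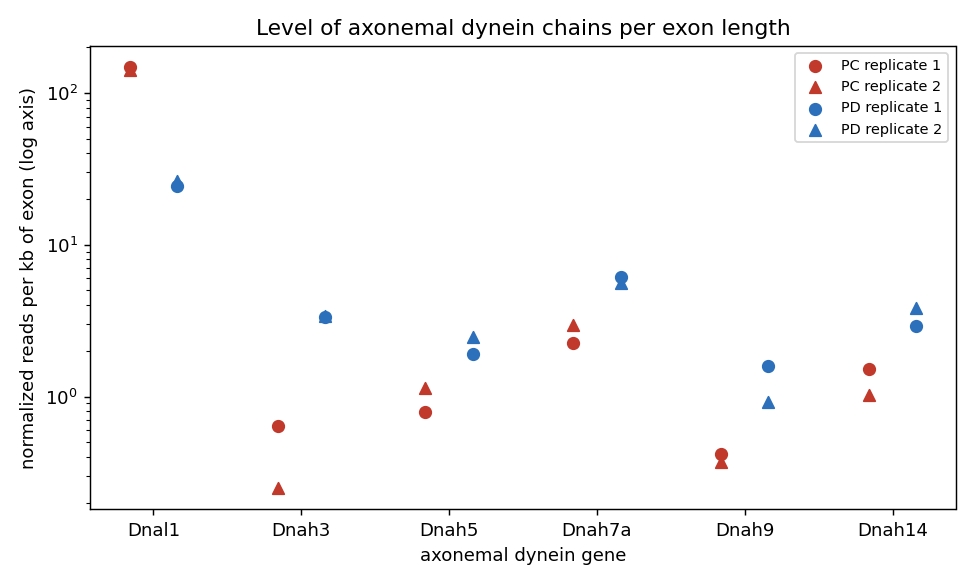
Normalized reads per kilobase of exon (log axis) of the 6 listed axonemal dynein genes, with PC libraries in red at the left and PD libraries in blue at the right of each gene, circles for replicate 1 and triangles for replicate 2. Dnal1 has 145.2 in PC and 25.4 in PD on average, and each heavy chain is at most 6.15 in any library with its PC points below its PD points.

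Of 3 genes for the docking and assembly of dynein arms 2 rose, where 11.2% of all listed genes were called higher. At a mean of at least 200 normalized reads, where the 2 that rose lie, 29.4% of listed genes were called higher. Ttc12, a tetratricopeptide protein whose loss in humans leaves sperm and airway cilia short of dynein arms, was the most abundant member that rose. It stood at 3370.3 and 3408.2 normalized reads in the PC libraries and at 1368.2 and 1454.5 in the PD libraries, a log2 fold change of 1.26 (SE 0.08; limma, Benjamini-Hochberg adjusted p = 0.013). The PC libraries differed by far less than the groups did. Ttc25, a subunit of the docking complex of the outer arm, had 598.2 and 667.4 normalized reads in PC against 282.2 and 260.3 in PD, a log2 fold change of 1.22 (SE 0.12; limma, Benjamini-Hochberg adjusted p = 0.019). Ccdc63, a relative of docking proteins that mouse sperm need to form a flagellum, had 75.4 and 51.2 in PC against 151.3 and 118.2 in PD. It was not called (log2 fold change -1.09, SE 0.28; limma, Benjamini-Hochberg adjusted p = 0.30).

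Cfap45 and Cfap161, genes for proteins of the microtubule doublets, had higher values in PC, and Cfap45 rose. Cfap45, which lies inside the doublet, had 618.0 and 603.1 normalized reads in PC against 296.7 and 279.5 in PD (log2 fold change 1.08, SE 0.11; limma, Benjamini-Hochberg adjusted p = 0.019). The replicates lay close together and the groups far apart. Cfap161, another protein of the doublet interior, had 96.1 and 128.5 in PC against 22.3 and 54.1 in PD. The PD libraries differed widely, and the gene was not called (log2 fold change 1.65, SE 0.47; limma, Benjamini-Hochberg adjusted p = 0.41).

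The 3 listed genes of the spokes, the central pair and inner arm regulation all had lower values in PC, and 0 were called. Rsph6a, a radial spoke head gene of the sperm flagellum, had 24.0 and 19.0 normalized reads in PC against 70.8 and 107.2 in PD. It came close to the threshold (log2 fold change -1.98, SE 0.34; limma, Benjamini-Hochberg adjusted p = 0.096). Rsph6a was called with a filter at a mean of 20 normalized reads and at an adjusted p under 0.1. The authors' deposited table gave it a false discovery rate of 3.52e-05. Spag6l, of the central apparatus and with a near-identical relative in Spag6, had 82.8 and 66.6 in PC against 161.0 and 215.4 in PD. With the same filter Spag6l was called too. Cfap57, which in humans is needed for a subset of inner arms, had 17.4 and 19.0 in PC against 48.5 and 39.4 in PD. Kif27, a kinesin close to the Hedgehog regulator Kif7, was higher in PC by value, with 166.5 and 167.7 against 96.0 and 66.9 in PD, and was not called (limma, Benjamini-Hochberg adjusted p = 0.20). Kif27 shares 6.37% of its exon bases with the antisense gene Gm26555, which is listed with a log2 fold change of 1.62.

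**Figure D4:**
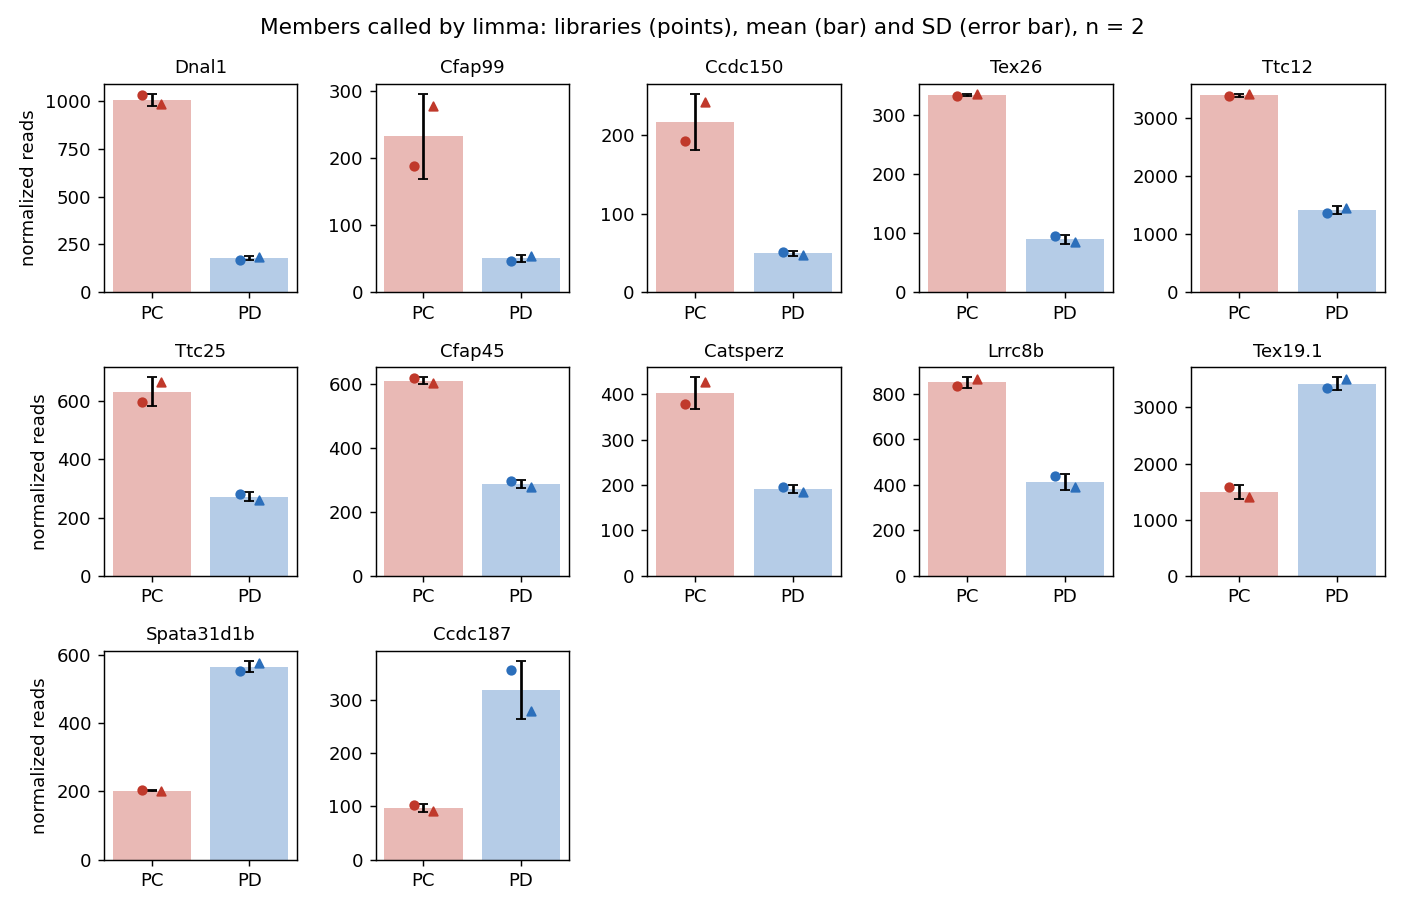
Normalized reads of 12 members called by limma, with PC at the left and PD at the right in each panel; points are libraries (circle replicate 1, triangle replicate 2), bars are means and error bars are SD (n = 2). In the 9 genes from Dnal1 to Lrrc8b the PC bar is higher, and in Tex19.1, Spata31d1b and Ccdc187 the PD bar is higher.

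Genes of the sperm flagellum's signalling had higher values in PC, and 1 of 3 rose, where 11.2% of all listed genes were called higher. At a mean of at least 200 normalized reads, where the 1 that rose lies, that share was 29.4%. Catsperz, an auxiliary subunit of the CatSper calcium channel, had 377.8 and 427.1 normalized reads in PC against 196.8 and 185.1 in PD (log2 fold change 1.07, SE 0.13; limma, Benjamini-Hochberg adjusted p = 0.035). Since 46.5% of its exon bases are shared with Kcnk4 on the same strand, the origin of its reads is uncertain. Ropn1l, a ropporin-like protein of the fibrous sheath, had 38.1 and 45.2 in PC against 3.88 and 15.6 in PD. Tssk4, a testis-specific kinase, had 33.1 and 42.8 in PC against 13.6 and 10.1 in PD. For Ropn1l and Tssk4 the log2 fold changes were 2.24 (SE 0.66) and 1.61 (SE 0.38), and neither was called (limma, Benjamini-Hochberg adjusted p = 0.45 and 0.26). PD replicate 1 held only 4 reads of Ropn1l.

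Of 7 genes named for the testis or spermatogenesis, Tex26 rose, and Tex19.1 and Spata31d1b fell. Tex19.1, known in the mouse from germ cells, placenta and pluripotent cells, where it restrains retrotransposons, was the most abundant member in PD. It stood at 1576.6 and 1410.9 normalized reads in PC and at 3341.5 and 3501.0 in PD, a log2 fold change of -1.20 (SE 0.10; limma, Benjamini-Hochberg adjusted p = 0.014). Per kilobase of exon it had 797.9 normalized reads in PC and 1827.6 in PD, the highest level among the members in both groups. It has a close paralog, Tex19.2, so its reads may be shared. Spata31d1b, of a multicopy family of spermatid genes and uncertain for that reason, had 203.0 and 201.0 in PC against 553.7 and 576.5 in PD (log2 fold change -1.48, SE 0.11; limma, Benjamini-Hochberg adjusted p = 0.014).

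Tex26 had 332.2 and 335.5 normalized reads in PC against 95.0 and 84.3 in PD, with PC replicates nearly equal (log2 fold change 1.89, SE 0.15; limma, Benjamini-Hochberg adjusted p = 0.014). Tex101, a surface glycoprotein of germ cells that mouse sperm need to pass into the oviduct, had 57.2 and 63.0 in PC against 169.7 and 141.1 in PD. It missed the threshold (log2 fold change -1.35, SE 0.20; limma, Benjamini-Hochberg adjusted p = 0.062), and the authors' deposited table gave it a false discovery rate of 1.38e-05. Tex101 was called with a pseudocount of 5, with a filter at a mean of 20 normalized reads, in voom and at an adjusted p under 0.1. Tex21 (88.6 and 88.0 in PC, 165.8 and 232.8 in PD) and Spata45 (13.3 and 20.2 in PC, 45.6 and 44.0 in PD) were lower by value and not called. Spata17 was higher by value, with 34.0 and 22.6 in PC against 10.7 and 8.25 in PD, and was not called either. The neighbouring coding gene of Spata17 in GENCODE M21, D1Pas1, fell, with a log2 fold change of -1.28.

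The promoter of Tex19.1 is shown beside that of Cfap99 because these members moved in opposite directions. Both are RefSeq windows on the plus strand of GRCm38.p6, chr11:121145893-121146192 and chr5:34288415-34288714, with 16 and 41 CpG sites. Neither holds an exact match to a motif described below.
Tex19.1: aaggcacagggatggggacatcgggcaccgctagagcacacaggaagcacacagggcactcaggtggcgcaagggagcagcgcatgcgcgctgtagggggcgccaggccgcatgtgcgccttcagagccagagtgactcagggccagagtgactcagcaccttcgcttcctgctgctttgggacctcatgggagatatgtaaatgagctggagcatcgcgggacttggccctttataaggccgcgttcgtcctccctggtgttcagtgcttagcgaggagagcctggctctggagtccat
Cfap99: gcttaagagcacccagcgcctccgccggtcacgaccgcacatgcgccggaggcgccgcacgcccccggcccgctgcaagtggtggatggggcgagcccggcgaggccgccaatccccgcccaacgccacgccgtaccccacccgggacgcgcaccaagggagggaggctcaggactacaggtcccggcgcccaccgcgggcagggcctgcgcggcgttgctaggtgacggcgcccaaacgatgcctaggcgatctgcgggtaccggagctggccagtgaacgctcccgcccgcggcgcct

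Cfap99, named among cilia and flagella associated proteins, had 187.2 and 277.2 normalized reads in PC against 46.5 and 54.1 in PD. The groups stood well apart although PC replicates differed more than those of most called members. The mean was 232.2 ± 63.6 in PC and 50.3 ± 5.32 in PD (SD, n = 2 each), a log2 fold change of 2.16 (SE 0.26; limma, Benjamini-Hochberg adjusted p = 0.029). With a pseudocount of 0.1 it was not called. Ccdc150, a coiled-coil gene, had 192.2 and 242.7 in PC against 51.4 and 46.7 in PD, a log2 fold change of 2.12 (SE 0.21; limma, Benjamini-Hochberg adjusted p = 0.018). Its neighbouring coding gene in GENCODE M21, Hecw2, fell, with a log2 fold change of -1.26. Ccdc187, also a coiled-coil gene, had 101.9 and 91.6 in PC against 356.8 and 279.5 in PD, a log2 fold change of -1.70 (SE 0.18; limma, Benjamini-Hochberg adjusted p = 0.022).

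Several members have known roles outside cilia. Lrrc8b, a subunit of the volume-regulated anion channel, rose, with 833.5 and 864.8 normalized reads in PC against 436.4 and 388.6 in PD (log2 fold change 1.04, SE 0.11; limma, Benjamini-Hochberg adjusted p = 0.022). Lrrc10, a gene of heart muscle, had 0 and 2.38 in PC against 12.6 and 11.0 in PD. The secreted proteins Ccdc3 and Ccdc80 were lower by value, Ccdc3 with 75.4 and 96.4 in PC against 182.3 and 162.2 in PD, and Ccdc80 with 11.6 and 13.1 in PC against 26.2 and 43.1 in PD. Neither these nor Lrrc10 were called. Ccdc3, at a log2 fold change of -1.0, and Lrrc8b lie just inside the table's limit of 1. Of the exon bases of Ccdc3, 69.1% are shared with the noncoding gene Gm26776 on the other strand.

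Of the remaining 9 genes, named for a protein domain, 6 had higher and 3 lower values in PC, and 0 were called. Ttc39a had 192.2 and 180.8 normalized reads in PC against 89.2 and 84.3 in PD, just short of the threshold (log2 fold change 1.10, SE 0.16; limma, Benjamini-Hochberg adjusted p = 0.061). Ttc39a was called with a pseudocount of 5, with a filter at a mean of 20 normalized reads and in voom. It was also called with reads scaled to equal totals and at an adjusted p under 0.1. The antisense RNA gene Ttc39aos1, at the same locus, had 34.0 and 41.6 in PC against 8.73 and 14.7 in PD. The exons of this pair do not overlap in GENCODE M21, but the authors' annotation and strand setting are not stated, so their reads cannot be told apart with certainty. Ttc6 had 35.6 and 19.0 in PC against 7.76 and 7.33 in PD, and its neighbour, the endoderm factor gene Foxa1, rose with a log2 fold change of 1.33. Lrrc61, Lrrc75b and Lrrc10b had log2 fold changes of 1.15, 1.56 and 1.24, and 30.6% of the exon bases of Lrrc61 are shared with Rarres2. PD replicate 2 of Lrrc61, at 102.6 normalized reads, lay far below PD replicate 1 at 225.0, while PC had 338.0 and 340.2.

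Among the lower members of that set, Ccdc24 had 58.8 and 39.3 normalized reads in PC against 135.8 and 116.4 in PD, and shares 31.8% of its exon bases with Slc6a9 and 31.6% with B4galt2. Ccdc81 had 12.4 and 3.57 in PC against 41.7 and 46.7 in PD, and Lrrc18 4.14 and 0 in PC against 26.2 and 12.8 in PD. Lrrc18 had the lowest log2 fold change of all members, -3.10 (SE 0.88; limma, Benjamini-Hochberg adjusted p = 0.41), on 5 and 0 reads in PC. Its neighbour Wdfy4 is listed with a log2 fold change of -2.63 and was not called. Of the 41 coding members 4 had a listed neighbour. Foxa1 and Wdfy4 had the direction of the member beside them, and Hecw2 and D1Pas1 had the opposite one.

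The label of the set was checked against the functional terms in the authors' deposited table. A cilium, axoneme, flagellum or dynein complex term was attached to 14 of the 42 members, and a sperm, acrosome or fertilization term to 6. Of the members 15 had a term of either kind and 14 had no functional term at all. The terms are incomplete, since Ttc12, Cfap45, Cfap161, Cfap57 and Spag6l, described above as genes of the axoneme or its assembly, had neither kind. The counts therefore do not show how many members are cilium or sperm genes. The symbol stems also gather genes with known roles outside cilia, such as Lrrc8b and Lrrc10. Among the 14 with a cilium term 7 had higher and 7 lower values, and 4 rose, among them Dnal1, Ttc25 and Catsperz. Among all 40 listed genes with a cilium term, 9 were called higher and 4 lower, 32.5% in all, against 31.1% of all listed genes. These 40 include the 14 members, and of the other 26 listed genes 5 were called higher and 4 lower, 34.6%. Among all 43 listed genes with a sperm term, members included, 11 were called higher and 9 lower, 46.5%. Symbols that fit the stems number 502 in GENCODE M21, and for Ift, Dnaaf, Tekt, Drc, Tctex and Iqc 0 were listed. Intraflagellar transport genes and tektins are therefore not analysed here.

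The table lists 5.07% of the genes that the authors tested, and 31.1% of those listed were called. Genes of cilia outside these symbols were set beside these shares. Of 76 such genes 3 were listed, and 1 was called: Morn2, a MORN repeat gene, rose, with 429.2 and 497.3 normalized reads in PC against 223.0 and 202.5 in PD (log2 fold change 1.12, SE 0.14; limma, Benjamini-Hochberg adjusted p = 0.034). Ak8, an adenylate kinase of cilia, had 227.0 and 188.0 in PC against 75.6 and 120.1 in PD, and Pifo had 4.14 and 10.7 in PC against 21.3 and 24.7 in PD. Of 18 genes of the BBSome and basal body, 17 of the transition zone, 9 of ciliary transport and 9 of the Hedgehog pathway, 0 were listed. Of 40 sperm genes outside the symbols 4 were listed and 0 called. The acrosomal gene Zpbp2 and the testis chaperone gene Calr3 had higher values, with log2 fold changes of 1.79 and 1.38, and Odf4 and Dpep3 lower ones, with -2.91 and -1.21.

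Markers of the cell types that use these genes, and of embryonic stem cells, were set beside the members. The marker lists were chosen with earlier results of these data known, so their counts are no independent evidence of a shift in cell type. Of 13 spermatid markers 0 were listed, where the table lists 5.07% of the genes that the authors tested. Of 13 markers of multiciliated cells 1 was listed, the cyclin-like gene Ccno, which acts in centriole amplification, and it fell, with 197.2 and 177.3 normalized reads in PC against 435.4 and 431.7 in PD (log2 fold change -1.21, SE 0.13; limma, Benjamini-Hochberg adjusted p = 0.021). Of 15 markers of meiotic germ cells 4 were listed, all with higher values, and Stra8, Rec8 and Dmc1 rose. Summed normalized reads of these 4 were 19856.2 and 21655.5 in PC against 4462.5 and 4151.7 in PD. Of 14 embryonic stem cell markers 4 were listed, and all 4 (Utf1, Lin28a, Dnmt3l and Tdh) fell. Summed, they came to 16923.4 and 16307.1 in PC against 42592.6 and 43898.9 in PD. The other markers, Pou5f1 and Nanog among them, are not analysed here. The part of these shifts in the members' changes was not tested.

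RFX factors, regulators of many cilium genes, bind a motif called the X-box, and the promoters were searched for it. RefSeq windows were found for 32 of the 42 members. The motif GTTNCCNNGGNAAC, read on both strands, was in 0 of the 32, against 0.529% of the 27025 genes with a window. A share so low makes 0 of 32 the likely outcome, so no conclusion is drawn from it. The shorter motif GTTGCCA, which covers one arm of the X-box and is read on both strands, was in 2 of the 32 (6.25%), against 5.02% of all genes and 5.80% of the listed genes with a window. These were Cfap161 and Lrrc10b, both with higher values in PC and neither called. Their windows lie on the minus strand of GRCm38.p6, at chr7:83794790-83795089 and chr19:10457398-10457697. Capitals mark the shorter motif or its reverse complement, which begins at -67, -60 and -40 from the start in Cfap161 and at -154 in Lrrc10b.
Cfap161: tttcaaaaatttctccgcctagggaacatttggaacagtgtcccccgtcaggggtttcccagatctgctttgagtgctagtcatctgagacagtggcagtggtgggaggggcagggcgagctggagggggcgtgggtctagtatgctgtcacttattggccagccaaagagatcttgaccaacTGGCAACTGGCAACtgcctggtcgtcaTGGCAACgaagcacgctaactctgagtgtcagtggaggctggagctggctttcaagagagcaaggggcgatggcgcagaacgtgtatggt
Lrrc10b: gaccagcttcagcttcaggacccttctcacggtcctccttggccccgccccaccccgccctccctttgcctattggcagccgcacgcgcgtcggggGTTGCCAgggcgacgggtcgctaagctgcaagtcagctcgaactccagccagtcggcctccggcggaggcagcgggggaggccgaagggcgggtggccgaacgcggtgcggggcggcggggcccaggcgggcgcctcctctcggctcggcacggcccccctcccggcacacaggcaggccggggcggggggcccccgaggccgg

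The Cfap161 window holds 3 copies and the Lrrc10b window 1 copy. The windows of the 7 called members that rose and had an entry held a median of 15 CpG sites, and those of the 3 that fell 2.0. Called or not, members with higher values in PC had a median of 14.0 and those with lower values 11.0. The medians were 15.5 for all listed genes higher in PC and 7.0 for those lower in PC. A match is a description of these letters only. Variants of the X-box beyond the spellings given were not searched, so a window without a match may still hold one.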

How the data were processed

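RNA of 46C mouse embryonic stem cells was sequenced in 2 PC and 2 PD libraries, grouped by the sample titles and treatments in the labels. The authors deposited 1 table of selected genes, with per-library columns, group means and a fold change on a log2 scale, and with p-values and false discovery rates of their own test, per the file headers. Undoing the log and subtracting 1 gave whole multiples of 1 step per library for 100.0% of values, within 0.001 reads, hence reads and size factors of 1.207 and 0.8406 (PC replicates 1 and 2) and 1.0313 and 1.0911 (PD replicates 1 and 2). Bowtie 0.12.2 and mm9 are named, without a role, in the submitters' processing notes. The counter, annotation, normalization and test are not stated there or in the labels.

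All 1593 listed genes entered 1 fit of limma 3.58.1 (R 4.3.3) on log2(value + 1), with a trended prior and 2 residual degrees of freedom. The filter on low values, a mean of 1 normalized read, was passed by all 42 members. Benjamini-Hochberg adjustment ran over the 31432 genes tested by the authors, a number taken from the ratio of their false discovery rate to p. Unlisted genes were assumed to have larger p-values. In the authors' test the largest listed p ranked 8099, beyond the 1593 listed genes, so the assumption does not hold for all unlisted genes. The adjusted p-values can be too large for that reason. The spread was estimated from genes selected on these libraries, which can make it too small. An exact permutation test of 2 against 2 libraries cannot go below 0.333. The procedure was tested on simulated data, but the outcome is not given here. No conclusion on the calls is drawn from that test. Alternatives were other pseudocounts, filters, priors and scalings, voom, a replicate block, leaving out each library and other thresholds.

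The text names the called members, Dnal1, Cfap99, Ccdc150, Tex101, the most abundant member of each family and, in groups, all other members, except 1 that is not reported here. Members and lists were chosen with earlier results of these data known, and role groups come from general knowledge of the genes. Exon lengths and overlaps are from GENCODE M21, matched by gene ID for all 42 members. Its build is not the one named in the notes, so no gene coordinates are given. Promoters are from RefSeq on GRCm38.p6.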

Additional observations from a re-analysis of the deposited data

How the results depend on the processing

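All 42 members kept their direction in every alternative that fitted them, which the lack of overlap between groups nearly fixes. The calls were less stable. Of the 13 called members (10 higher, 3 lower), 12 were called with a pseudocount of 0.1 (26.2% of all listed genes) and 16 with a pseudocount of 5 (5 lower; 36.5% of all listed genes). A filter at a mean of 20 normalized reads, which 36 members passed, gave 18 (7 lower; 47.8% of all genes that passed). voom gave 16 (5 lower; 41.5% of all listed genes), and an adjusted p under 0.1 likewise 16 (5 lower; 42.6%). The members' counts thus rose and fell with those of the table. In each of these but the first, all 13 were kept, and Cfap99 was lost with a pseudocount of 0.1. With a constant prior, and with reads without size factors, 0 were called in either direction, against 0.0628% and 4.02% of all listed genes, although 41 and 40 members had an unadjusted limma p under 0.05. Of the wider list of cilium and sperm genes 1 was called, and 0 with a pseudocount of 0.1, a constant prior or no size factors. Leaving out each library in turn gave counts from 0 to 0 for the members and the wider list, against 2.07% to 3.83% of all listed genes. A lone library is then assumed to vary like the other group, with 1 residual degree of freedom. The adjusted p of the called members ranged from 0.22 to 1.0 there (limma, Benjamini-Hochberg). Scaling to equal totals over the listed genes moved the median log2 fold change of all listed genes by 0.28 and called 14 members, and 245 of the 477 calls over all listed genes were then higher in PC, against 179 of 495. Adjustment over the listed genes alone called all 42 members (21 higher, 21 lower) and 7 of the wider list, as it did 96.4% of all listed genes, so that count says nothing of the members. The authors' false discovery rates passed 31 (16 higher, 15 lower).

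Deviations of same-numbered libraries had a correlation of -5.75e-05 over the listed genes, which gives no sign of pairing. The value cannot exclude pairing, since many listed genes had few reads and all were selected on these libraries. With a replicate block limma called 29 members, 14 of them lower, and 4 of the wider list, with 1 residual degree of freedom. The members' share, 69.0%, compares with 73.8% of all listed genes. Some members had few reads: 10 of 42 had under 10 reads in a library and 2 had 0 reads in 1 library. Of the 1593 listed genes, the number at 0 reads ran from 46 in PD replicate 1 to 103 in PC replicate 2. The causes of these differences were not tested.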
